A study of Mus musculus with 6 samples.

Results

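The unfolded protein response (UPR) is followed here through 10 genes, Hspa5, Hsp90b1, Dnajb9, Herpud1, Xbp1, Atf4, Ddit3, Trib3, Chac1 and Asns, in microglia of young and adult WT mice. The genes were chosen by name as established effectors or targets of endoplasmic reticulum (ER) stress. The rule uses no measured value, but earlier results of these data were known when the genes were chosen. All 10 were found among the 38924 Ensembl genes counted in each library. The 6 libraries came from WT (C57BL/6) female mice that served as controls for Het mice, 3 mice at 5 weeks and 3 at 24 weeks of age, with no treatment named in the labels. Microglia, the resident macrophages of the brain, were enriched from whole brains with beads against CD11b, a surface protein that other myeloid cells also carry. The Het libraries were not analysed here. Each age was sequenced in a lane of its own, so in every comparison below the lane and the age cannot be told apart.

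Proteins that are secreted or placed in membranes fold in the ER, and unfolded protein there is sensed by the kinase and RNase IRE1 (Ern1), the kinase PERK (Eif2ak3) and the membrane-bound transcription factor ATF6. IRE1 splices Xbp1 mRNA into the form that encodes an active transcription factor, PERK phosphorylates eIF2 alpha so that general translation falls while Atf4 mRNA is translated more, and ATF6 is cut in the Golgi by the proteases encoded by Mbtps1 and Mbtps2. XBP1 and ATF6 raise chaperones and degradation factors, whereas ATF4 raises genes of amino acid supply and, through Ddit3 (CHOP), genes linked to cell death. The splicing of Xbp1, the translation of Atf4 and the cleavage of ATF6 are not seen in counts per gene, so the values below are mRNA levels only.

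The promoter stretches of 5 members that hold a known response element are printed here, because these elements are what the arms of the response act through and the members are ordered below by arm. Sequences are from RefSeq on GRCm38.p6, searched on both strands from 250 bases before to 50 after each gene's start, and all 10 members had such a window. The ER stress response element (ERSE), bound by ATF6 with NF-Y, was searched as CCAAT and CCACG with 9 bases between them, and its shorter form ERSE-II as ATTGG and CCACG with 1 base between them. The C/EBP-ATF response element (CARE), bound by ATF4, was searched as TGATG and AA with 1 base between them. Each line runs 5′ to 3′ on the gene's strand with the element in capitals and 20 bases on each side, or 5 bases for Hspa5 and Asns, whose stretches lie before the RefSeq start but inside the gene as GENCODE draws it.
Hspa5 ERSE, chr2:34772020-34772048, plus strand: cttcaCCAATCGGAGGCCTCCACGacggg
Hsp90b1 upstream ERSE, chr10:86705618-86705676, minus strand: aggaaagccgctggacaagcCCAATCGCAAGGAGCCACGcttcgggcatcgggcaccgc
Hsp90b1 downstream ERSE, reversed, chr10:86705513-86705571, minus strand: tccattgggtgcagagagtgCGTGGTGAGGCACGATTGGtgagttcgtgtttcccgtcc
Herpud1 ERSE-II, chr8:94386357-94386407, plus strand: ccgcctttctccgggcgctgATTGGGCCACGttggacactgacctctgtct
Herpud1 CARE, reversed, chr8:94386297-94386344, plus strand: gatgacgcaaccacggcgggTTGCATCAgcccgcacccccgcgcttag
Chac1 CARE, reversed, chr2:119351029-119351076, plus strand: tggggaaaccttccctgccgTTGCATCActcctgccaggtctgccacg
Asns CARE, chr6:7693220-7693237, minus strand: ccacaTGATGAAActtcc

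The ERSE lay in 39 of 32851 promoter windows of the genome (0.119%), among them those of Hspa5, from -65 to -47 relative to the start, and of Hsp90b1, from -212 to -194 and from -107 to -89. The ERSE-II lay in 12 windows (0.0365%), among them that of Herpud1, from -52 to -42. The shorter CARE lay in 1304 windows (3.97%), and the members with one were Herpud1, Chac1, Asns and Trib3, in which it followed the start. The core of the UPR element bound by XBP1, TGACGTGG, lay in 222 windows (0.676%) and in that of no member. ERSE, ERSE-II and the reverse of the UPR element share the letters CCACG, and a match or its lack describes only these letters in this window.

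The libraries differed in depth, from 23198065 to 46434788 read pairs on genes at 5 weeks and from 10410625 to 13554336 at 24 weeks. Pairs placed uniquely but on no exon were 40.0% to 41.8% at 5 weeks and 48.7% to 54.9% at 24 weeks. The summed level of 8 microglial markers was 25050 to 29335 normalized CPM (counts per 1000000 on genes, after scaling for library composition) at 5 weeks and 21812 to 24335 at 24 weeks, with 1 rising and 1 falling. The summed level of 8 endothelial markers was 238 to 283 CPM at 5 weeks and 538 to 568 at 24 weeks, with 7 rising, and that of 7 mural cell markers was 130 to 161 and 254 to 289 CPM, with 6 rising. Markers of B and plasma cells, which are secretory cells with much ER, summed to 184 to 299 and 215 to 266 CPM, mostly from Ighm. Cd79a was at 0 counts in 1 library. Of the 3 tested 1 fell, Cd79b, from 17.1, 16.9 and 20.5 CPM to 8.83, 6.65 and 6.26 CPM (log2 fold change -1.32, edgeR adjusted p = 0.000320), and 0 rose. Markers of choroid plexus epithelium, another secretory tissue, summed to 5239 to 7920 and 4854 to 6223 CPM, mostly from Ttr, which did not pass. Of these 6 markers 1 rose, Kl, from 156, 229 and 143 CPM to 280, 316 and 330 CPM (log2 fold change 0.81, edgeR adjusted p = 0.00480), and 0 fell. Astrocyte markers summed to 392 to 543 CPM at 5 weeks and 325 to 373 at 24 weeks, with 3 of 6 falling, and oligodendrocyte markers to 1742 to 2985 and 1059 to 2919 CPM, also with 3 of 6 falling. Neuronal markers summed to 59.3 to 61.0 and 31.0 to 70.5 CPM, with 2 of 7 rising and 2 falling. Those of neutrophils and monocytes summed to 117 to 275 and 82.9 to 208 CPM, with 0 of 6 tested rising or falling. Heat shock and dissociation-responsive genes summed to 10870 to 14711 CPM at 5 weeks and 9719 to 13184 at 24 weeks, mostly from Fos and Jun. Of these 8 genes 1 rose, Egr1, from 710, 984 and 1209 CPM to 2061, 1810 and 2096 CPM (log2 fold change 1.04, edgeR adjusted p = 0.00198), and none fell. The part of these differences in the values below was not tested, and in enriched bulk cells fewer cells of a type and less RNA per cell cannot be told apart. The 24-week replicate 3 stood apart, with 78 counts of Xist, the noncoding RNA of X inactivation in females, against 31677 to 59021 in the other libraries, while the Y-linked Ddx3y, Eif2s3y, Kdm5d and Uty had 0 counts in all 6 libraries. Values of Ddit3, Xbp1 and Atf4 are therefore also given without it, and no member other than Ddit3 passed without it.

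The members covered a wide range of mRNA levels, with the ER chaperone Hspa5 highest and the stress-induced enzyme Chac1 lowest. Levels between genes are compared as normalized CPM per kilobase of the longest transcript, means of 3 mice at each age. Hspa5 (BiP), the main HSP70-type chaperone of the ER, stood at 577 CPM per kb at 5 weeks and 488 at 24 weeks. Hsp90b1 (GRP94), the HSP90-type chaperone of the ER, stood at 253 and 251 CPM per kb. Herpud1, a membrane protein of the ER-associated degradation machinery, stood at 216 and 203 CPM per kb. These 3 held ranks 73, 150 and 181 of 15959 genes with a length.

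The transcription factors came next in this order. Atf4 stood at 136 CPM per kb at 5 weeks and 113 at 24 weeks, Xbp1 at 105 and 82.3, and Ddit3 at 64.2 and 48.5. Dnajb9 (ERdj4), a co-chaperone of Hspa5, stood at 29.4 and 30.4 CPM per kb. The ATF4 targets Asns, Trib3 and Chac1 were far lower. Asns, which encodes asparagine synthetase, stood at 1.02 and 1.13 CPM per kb. Trib3, a pseudokinase that binds ATF4 and CHOP, stood at 0.240 and 0.462, and Chac1, which degrades glutathione, at 0.183 and 0.211. These levels do not stand for ATF4 targets as a class. Among the other targets listed below, Fgf21 had 0 counts, while Slc3a2 had means of 266 and 268 CPM, not divided by length. Of the neighbours in this order, the ranges over the 6 libraries overlapped for Hsp90b1 with Herpud1, Atf4 with Xbp1, and Trib3 with Chac1, while the other neighbours stayed apart. When all exons of a gene were taken as its length, Ddit3 at 36.3 CPM per kb at 5 weeks and Dnajb9 at 28.4 overlapped, with Ddit3 higher in 4 of 6 libraries, and Atf4 and Xbp1 no longer did.

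**Figure D1:**
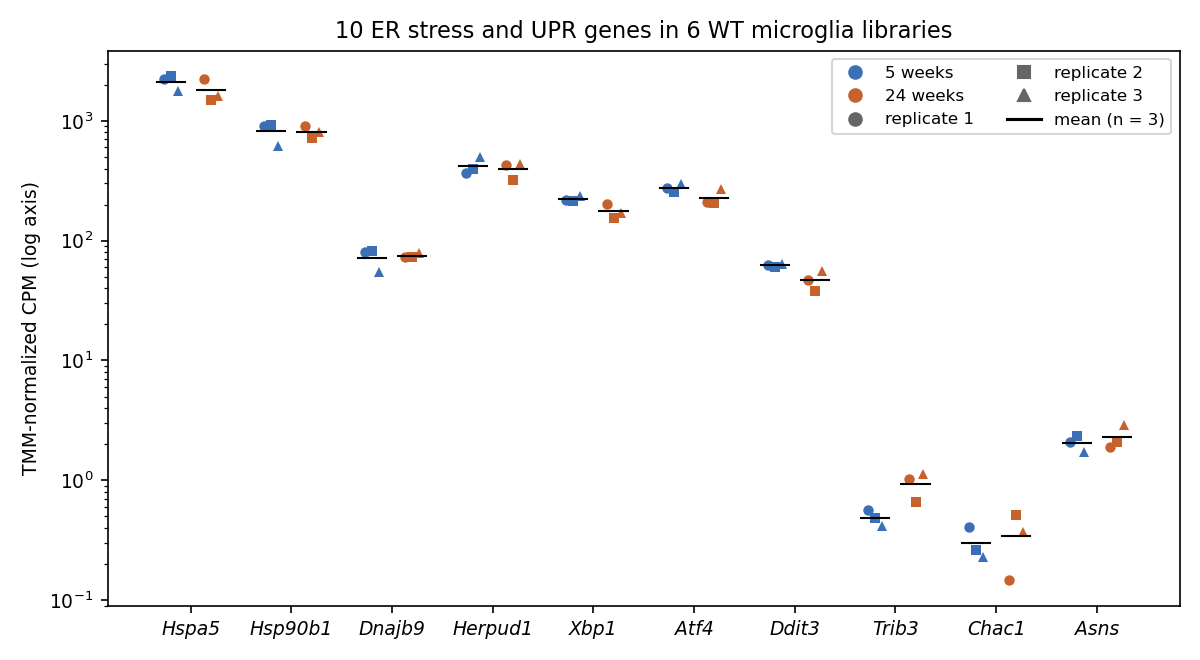
Normalized CPM (log axis) of the 10 genes in each of the 6 libraries, by age (colour) and replicate number (symbol), with bars for the mean of 3 mice. Hspa5 lies between 1505 and 2368 CPM in all libraries, whereas Trib3, Chac1 and Asns lie below 3 CPM, and the ages are apart for Xbp1, Ddit3 and Trib3.

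Between the ages, 9 of the 10 members had enough counts to be tested, and 1 of them fell (Ddit3), none rose, and 8 did not pass an adjusted p of 0.05 in edgeR's quasi-likelihood test. At an unadjusted p under 0.05 in edgeR 1 rose and 2 fell, and by adjusted p 2 fell in DESeq2 and 1 in limma-voom, with 0 rising in either. Of all 16157 genes tested, 28.8% passed, 15.5% rising and 13.3% falling at 24 weeks. The members' falling share of 11.1% was near that of all genes, and 9 genes are too few to tell the shares apart. The 5-week and 24-week values stood apart for 3 of the 9 members (Xbp1, Ddit3 and Trib3) and for 45.1% of all genes. The median log2 fold change, 24 weeks minus 5 weeks, was -0.09 over the 9 members and 0.00 over all genes. Below 0 lay 6 of the 9 members and 8047 of 16157 of all genes. At 24 weeks replicate 2 was the lowest library for 8 of the 9 members and replicate 3 the highest for 6. Such counts were not made over all genes, so they may describe the libraries in general.

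The 3 chaperones did not pass, and the libraries of the ages overlapped for each. Hspa5 (ENSMUSG00000026864, chr2:34771970-34777547, plus strand) measured 2228, 2368 and 1766 normalized CPM in the 5-week replicates 1, 2 and 3, and 2252, 1505 and 1621 CPM in the 24-week replicates. The 24-week replicate 1 lay among the 5-week libraries. The level at 24 weeks was 0.845-fold that at 5 weeks with a 95% interval from 0.644 to 1.11 (log2 fold change -0.24, SE 0.18, edgeR adjusted p = 0.334). A fall to 0.644-fold and a small rise therefore both lay within the error.

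Hsp90b1 (ENSMUSG00000020048, chr10:86690209-86705509, minus strand) measured 905, 926 and 617 CPM at 5 weeks and 903, 714 and 807 CPM at 24 weeks. The 5-week replicate 3 was the lowest of all 6 libraries, and the log2 fold change was -0.01 (95% interval -0.38 to 0.35, edgeR adjusted p = 0.958). The noncoding Gm15344 overlaps this gene on the same strand with 74 to 220 counts per library, and pairs that fall on both were not counted for either. Dnajb9 (ENSMUSG00000014905, chr12:44205559-44210326, minus strand) measured 80.3, 81.7 and 54.9 CPM at 5 weeks and 72.9, 72.7 and 78.6 at 24 weeks. Again the 5-week replicate 3 was lowest, and the other 5 libraries lay between 72.7 and 81.7 CPM. The log2 fold change of Dnajb9 was 0.05 (95% interval -0.28 to 0.37, edgeR adjusted p = 0.829).

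Herpud1 (ENSMUSG00000031770, chr8:94386438-94395377, plus strand), whose promoter window holds both the ERSE-II and the CARE printed above, measured 369, 396 and 499 CPM at 5 weeks and 432, 320 and 436 CPM at 24 weeks. The highest library was the 5-week replicate 3, opposite to the chaperones, and the ages overlapped. The log2 fold change was -0.09 (SE 0.16, 95% interval -0.43 to 0.25, edgeR adjusted p = 0.701).

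Xbp1 (ENSMUSG00000020484, chr11:5520659-5525893, plus strand) lay close to the threshold. It measured 219, 216 and 234 CPM at 5 weeks and 204, 153 and 169 CPM at 24 weeks. Every 24-week library lay below every 5-week library, by a small margin for the 24-week replicate 1. The log2 fold change was -0.35 (SE 0.12, 95% interval -0.62 to -0.08), and the adjusted p of 0.0539 in edgeR's test missed the threshold. DESeq2 gave a log2 fold change of -0.35 with an adjusted p of 0.0389, whereas edgeR without the 24-week replicate 3 gave -0.33 with an adjusted p of 0.150. Without the 24-week replicate 1 it was -0.48 with an adjusted p of 0.0297 in edgeR, and without the 24-week replicate 2 it was -0.27 with one of 0.208. With total counts as the only normalization it was -0.25 (edgeR adjusted p = 0.108), and with length and GC trends removed -0.26 (edgeR adjusted p = 0.0813). It passed in 5 of 16 other settings.

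In the PERK arm, Ddit3 passed and fell, while Atf4, Trib3 and Asns did not pass and Chac1 was below the filter on low counts. Atf4 (ENSMUSG00000042406, chr15:80255184-80257541, plus strand), the transcription factor translated more when eIF2 alpha is phosphorylated, measured 273, 254 and 298 CPM at 5 weeks and 210, 205 and 272 CPM at 24 weeks. The 24-week replicate 3 lay among the 5-week libraries and the others below them. The log2 fold change was -0.26 (SE 0.13, edgeR adjusted p = 0.158), and -0.41 without the 24-week replicate 3 (edgeR adjusted p = 0.0531).

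Ddit3 (ENSMUSG00000025408, chr10:127290774-127296288, plus strand) encodes CHOP, the transcription factor of prolonged ER stress. It measured 62.8, 60.3 and 63.5 CPM at 5 weeks and 46.6, 38.4 and 56.0 CPM at 24 weeks. The 5-week libraries lay close together, the 24-week libraries were more spread, and the ages did not overlap. The level fell to 0.754-fold at 24 weeks (95% interval 0.613 to 0.926), a log2 fold change of -0.41 (SE 0.14, edgeR adjusted p = 0.0431).

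Leaving out some single libraries ended this call. Without the 24-week replicate 3 the log2 fold change of Ddit3 was -0.56 (edgeR adjusted p = 0.0184), and without the 5-week replicate 3 it was -0.39 (edgeR adjusted p = 0.0431). It did not pass when the 5-week replicate 1 or 2 or the 24-week replicate 1 or 2 was left out, with edgeR adjusted p-values of 0.0968, 0.0583, 0.119 and 0.174. The log2 fold change in these fits was -0.41, -0.44, -0.41 and -0.29, so only leaving out the 24-week replicate 2 made it clearly smaller in size. It was also lost with total counts as the only normalization (log2 fold change -0.31, edgeR adjusted p = 0.0944) and with length and GC trends removed (-0.28, edgeR adjusted p = 0.106). Ddit3 overlaps Mars, a methionyl-tRNA synthetase gene, on the opposite strand, and the counting used strand.

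Trib3 (ENSMUSG00000032715, chr2:152337422-152344032, minus strand) had only 18, 11 and 18 counts at 5 weeks and 14, 9 and 12 at 24 weeks. Normalized for depth these were 0.56, 0.48 and 0.42 CPM and then 1.02, 0.67 and 1.12 CPM, so that every 24-week library lay above every 5-week library. The log2 fold change of 0.93 (SE 0.38, 95% interval 0.10 to 1.77) did not pass (edgeR adjusted p = 0.0885). At this depth the interval of Trib3 ran from 1.07-fold to 3.41-fold.

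Chac1 (ENSMUSG00000027313, chr2:119351229-119354381, plus strand) was below the count filter, with 13, 6 and 10 counts at 5 weeks and 2, 7 and 4 at 24 weeks. These were 0.41, 0.26 and 0.23 CPM and 0.15, 0.52 and 0.37 CPM, so that the 24-week libraries held both the lowest and the highest value and no difference was detectable. Fitted without the filter, its log2 fold change was 0.16 (SE 0.67, edgeR adjusted p = 0.893). Asns (ENSMUSG00000029752, chr6:7675169-7693254, minus strand) had 67, 54 and 74 counts at 5 weeks and 26, 28 and 31 at 24 weeks. Its normalized levels of 2.09, 2.36 and 1.71 CPM and 1.90, 2.07 and 2.90 CPM overlapped, with a log2 fold change of 0.15 (SE 0.27, 95% interval -0.45 to 0.75, edgeR adjusted p = 0.709).

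**Figure D2:**
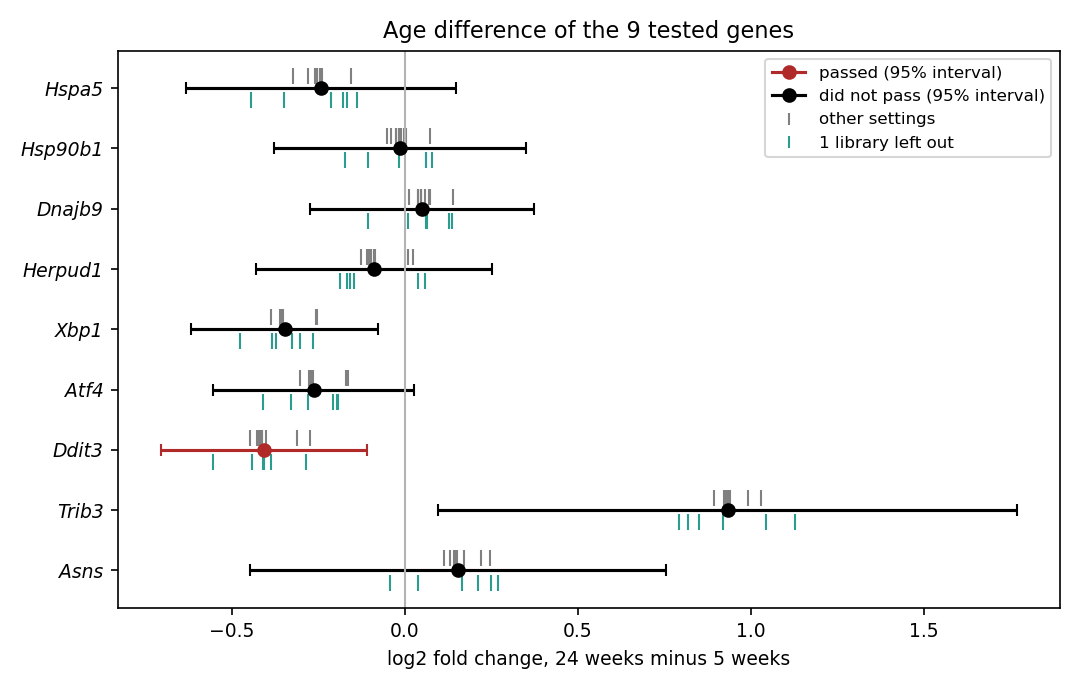
Log2 fold change between the ages (24 weeks minus 5 weeks) of the 9 tested genes, with the 95% interval of edgeR's fit, the values under other settings as grey ticks above and those with 1 library left out as green ticks below. The interval of Ddit3 runs from -0.71 to -0.11 and is the only one drawn as passed, that of Trib3 is the widest of the 9, and ticks fall on both sides of 0 for Hsp90b1, Dnajb9, Herpud1 and Asns.

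The 5-week replicate 3, the most deeply sequenced library, departed from its group in opposite directions for different members. Against the mean of the 5-week replicates 1 and 2 its log2 difference was -0.57 for Hsp90b1, -0.56 for Dnajb9 and -0.38 for Hspa5, but 0.39 for Herpud1, 0.18 for Atf4 and 0.11 for Xbp1. The lower genes have a low GC content (42.1%, 40.6% and 45.6% of the transcript) and the higher ones a high GC content (53.0%, 55.5% and 53.0%). The other members did not all keep to this order, since Trib3, the highest in GC of the 9 (58.2%), was at -0.27 with few counts, Ddit3 (45.6%) at 0.04 and Asns (47.7%) at -0.36. Protein-coding genes in general went from lower to higher with GC content in this library, with a median log2 difference of -0.42 among the genes lowest in GC and 0.35 among those highest, when the genes were divided by GC content into 10 equal groups.

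After each library's trends with length and GC were removed, these medians lay between -0.01 and 0.04. That follows from the removal, which was fitted to the same genes, and is no test of GC content as a cause. The differences were smaller for 7 of the 9 members. Those of Xbp1 and Atf4 came to 0.01 and 0.00, and those of Hsp90b1, Dnajb9 and Hspa5 to -0.24, -0.17 and -0.21. Those of Herpud1 (0.29) and Ddit3 (0.24) stayed above 0, and Trib3, with few counts, lay at -0.53. Without the 5-week replicate 3, Dnajb9 had a log2 fold change of -0.11 between the ages and Herpud1 one of 0.06, each of the opposite sign to that with all libraries and neither passing.

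**Figure D3:**
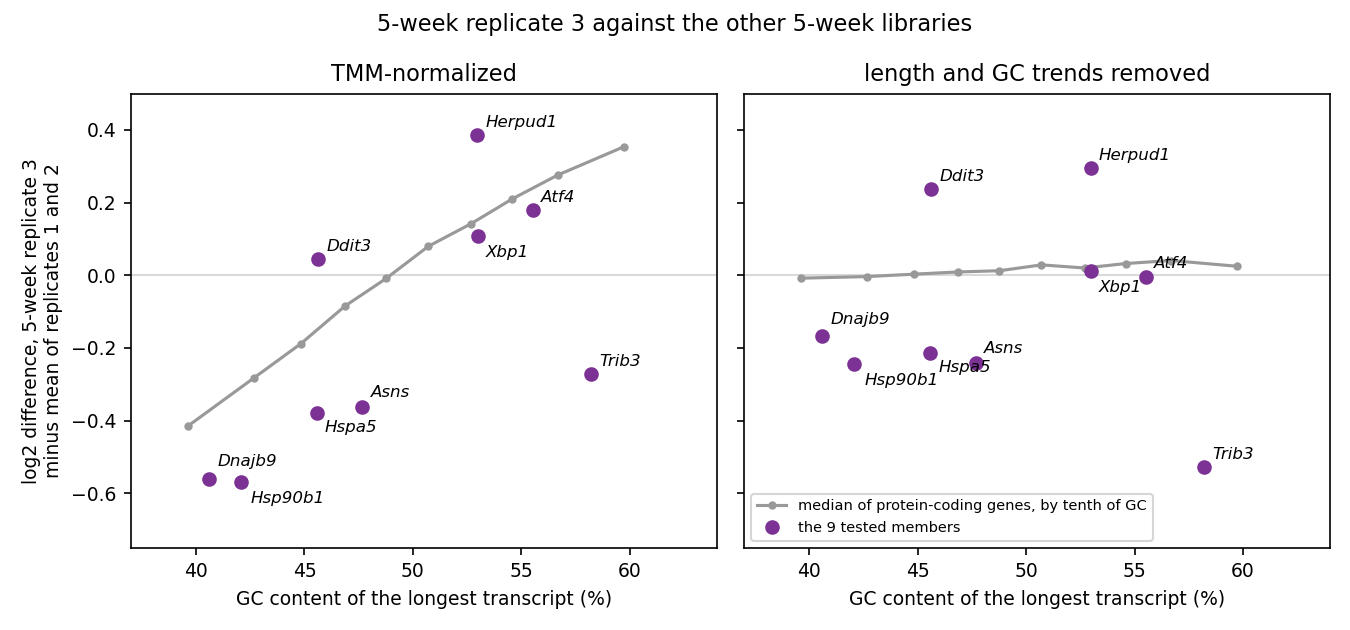
Log2 difference of the 5-week replicate 3 from the mean of the other 5-week libraries against the GC content of the longest transcript (%), for the 9 tested genes (points) and as the median of protein-coding genes in 10 equal groups by GC content (line), before (left) and after (right) removal of length and GC trends. The line climbs from -0.42 to 0.35 on the left and is flat on the right, which follows from the removal. There Herpud1 and Ddit3 remain above it and the chaperones below.

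Among the sensors and regulators of the response, 1 of 13 genes tested rose and none fell in edgeR's test, and the median log2 fold change was 0.01. At an unadjusted p under 0.05 in edgeR 2 rose and 1 fell, and 1 rose and 1 fell by adjusted p in both DESeq2 and limma-voom. The sensor genes did not pass, with log2 fold changes of 0.31 for Ern1 (edgeR adjusted p = 0.0653), -0.04 for Eif2ak3, 0.04 for Atf6 and 0.01 for Atf6b. Ern1 measured 50.3, 59.9 and 64.5 CPM at 5 weeks and 71.7, 73.0 and 71.8 CPM at 24 weeks, and the ages did not overlap. Its log2 fold change was 0.41 with total counts only (edgeR adjusted p = 0.0176) and -0.03 with length and GC trends removed. It was 0.40 without the 5-week replicate 3 (edgeR adjusted p = 0.00666) and 0.20 without the 5-week replicate 1 (edgeR adjusted p = 0.259).

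The gene that rose was Mbtps2, which encodes the site-2 protease that frees ATF6 from the membrane. It measured 31.1, 34.1 and 25.7 CPM at 5 weeks and 36.9, 41.5 and 43.9 CPM at 24 weeks (log2 fold change 0.43, SE 0.13, edgeR adjusted p = 0.0326). All 24-week libraries were above all 5-week libraries, but the call was lost without the 5-week replicate 1 or any of the 24-week replicates, with edgeR adjusted p-values from 0.0517 to 0.119. Mbtps2 lies on the X chromosome, and its highest library was the 24-week replicate 3, which had 78 counts of Xist. Whether the 2 are related was not tested. Mbtps1, the site-1 protease, had a log2 fold change of 0.09.

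Atf3, a transcription factor induced by ATF4 and by many other stresses, measured 2897, 2872 and 3836 CPM at 5 weeks and 2226, 1784 and 2692 CPM at 24 weeks. The ages did not overlap, and the log2 fold change of -0.52 (SE 0.18) missed the threshold in edgeR's test (adjusted p = 0.0512) and passed in DESeq2 (-0.53, adjusted p = 0.0118). Without the 24-week replicate 3 it was -0.68 (edgeR adjusted p = 0.0313). Cebpb, the dimer partner of CHOP, had a log2 fold change of 0.31 that did not pass, and of 0.69 without the 5-week replicate 3 (edgeR adjusted p = 0.000158). The phosphatase subunits Ppp1r15a and Ppp1r15b, which reverse the phosphorylation of eIF2 alpha, stood at -0.12 and -0.02, Eif2s1, which encodes eIF2 alpha itself, at -0.16, Dnajc3, an inhibitor of PERK, at -0.20, and Nupr1 at 0.04, none of them passing with all libraries in edgeR. Without the 5-week replicate 3 Dnajc3 passed at -0.34 (edgeR adjusted p = 0.00455) and Eif2s1 at -0.32 (edgeR adjusted p = 0.0200). With length and GC trends removed Dnajc3 passed at -0.34 (edgeR adjusted p = 0.0171) and Ppp1r15b at -0.26 (edgeR adjusted p = 0.0487). The 3 other eIF2 alpha kinases, which respond to stresses outside the ER, did not pass in edgeR, DESeq2 or limma-voom (2 at an unadjusted p under 0.05 in edgeR), with log2 fold changes of 0.28 for Eif2ak1, 0.30 for Eif2ak2 and 0.22 for Eif2ak4. Without the 5-week replicate 3 Eif2ak1 passed at 0.31 and Eif2ak4 at 0.33 (edgeR adjusted p = 0.0126 and 0.00574), and all 3 passed with total counts only (edgeR adjusted p from 0.0158 to 0.0459), whereas Eif2ak4 was at -0.01 with length and GC trends removed.

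The ER chaperones and folding enzymes beyond the members were lower at 24 weeks in larger number. Of the 18 tested, 9 (50%) fell, against 13.3% of all genes, while 1 rose and 8 missed the threshold. The list was made with earlier results of these data known, so this share is a description and no independent support. The median of their log2 fold changes was -0.34, and 14 lay below 0, beside 8047 of 16157 of all genes. Those that fell were Ppib, Creld2, Sdf2l1, Dnajb11, Pdia6, Pdia4, P4hb, Sil1 and Hyou1. Ppib, a prolyl isomerase of the ER, measured 156.9, 148.8 and 147.2 CPM at 5 weeks and 98.0, 88.3 and 95.5 CPM at 24 weeks (log2 fold change -0.68, SE 0.10, edgeR adjusted p = 0.000672). Sdf2l1, which acts with Hspa5 and the ER-resident DnaJ proteins, measured 58.7, 51.5 and 53.4 CPM and then 43.1, 34.9 and 34.6 CPM (-0.54, SE 0.12, edgeR adjusted p = 0.00784). In both genes the ages did not overlap, by a wide margin for Ppib and a smaller one for Sdf2l1, whose 24-week libraries were more spread.

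The exception was Pdia3 (ERp57), the disulfide isomerase that works with calnexin and calreticulin on glycoproteins. It measured 298.5, 319.5 and 244.4 CPM at 5 weeks and 599.7, 515.5 and 559.0 CPM at 24 weeks, a rise of 0.96 on the log2 scale (SE 0.13, edgeR adjusted p = 0.000434). Calr and Canx, its lectin partners, had log2 fold changes of -0.16 and -0.30 and did not pass.

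The count of falling chaperones depended on single libraries. It was 2 without the 24-week replicate 2, 4 without the 24-week replicate 3, 4 without the 5-week replicate 1 and 11 without the 5-week replicate 3, and it was 5 with total counts as the only normalization. With length and GC trends removed it stayed at 9. The falling genes among all tested moved as well, from 2141 of 16157 to 3298 with these trends removed. They numbered 1466 with total counts only, 1181 of 16807 without the 24-week replicate 2 and 1514 of 16792 without the 24-week replicate 3. Without the 5-week replicate 1 they numbered 1292 of 15899, and without the 5-week replicate 3 they numbered 2817 of 15922. At 24 weeks replicate 1 was the highest library for 15 of the 18 genes, a count not made over all genes.

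**Figure D4:**
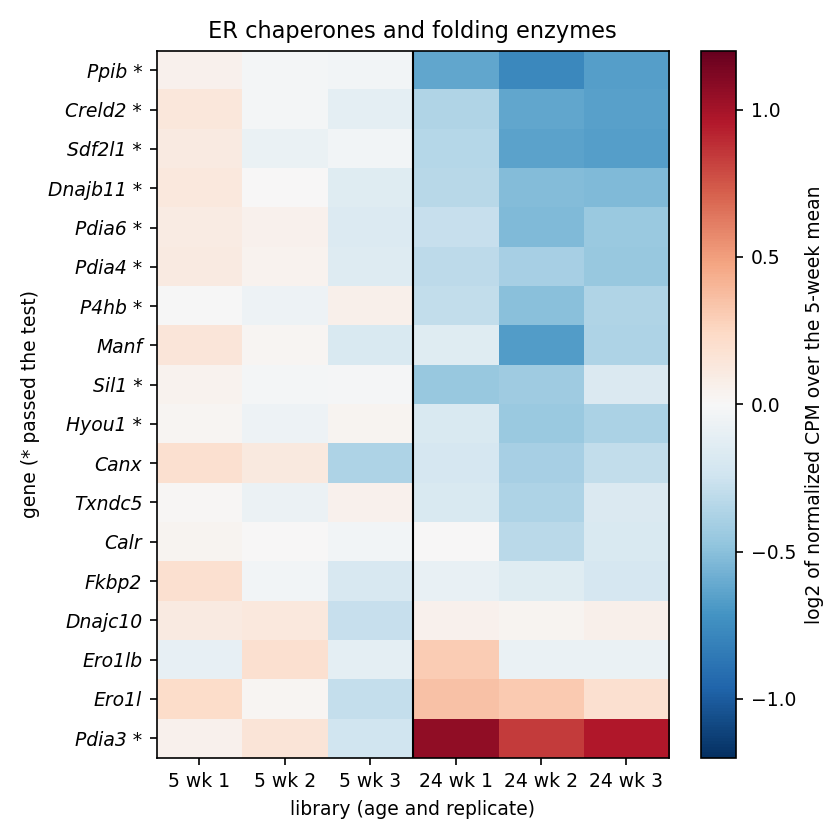
Log2 of normalized CPM over the 5-week mean for the 18 ER chaperones and folding enzymes (rows) in the 6 libraries (columns), with genes that passed marked by an asterisk. The 9 genes that fell are blue in all 24-week columns, least so in replicate 1 for most, and Pdia3 alone is strongly red, at 515.5 to 599.7 CPM against 244.4 to 319.5 CPM.

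Of 20 tested genes for entry into the ER and transport out of it 6 (30%) fell and 1 (5%) rose, beside 13.3% and 15.5% of all genes. The median of the list, also made with earlier results of these data known, was -0.30 on the log2 scale. Ssr4, a subunit of the translocon-associated complex, measured 75.1, 67.6 and 82.5 CPM at 5 weeks and 52.2, 47.2 and 53.7 CPM at 24 weeks (-0.56, SE 0.11, edgeR adjusted p = 0.00449). Sec13, a coat protein of the vesicles that leave the ER, measured 67.6, 65.6 and 73.4 CPM and then 51.5, 39.6 and 47.2 CPM (-0.58, SE 0.12, edgeR adjusted p = 0.00513). The ages did not overlap in either gene. Sec63, a DnaJ protein of the translocon that engages Hspa5, went the other way, from 79.3, 91.1 and 68.4 CPM to 114.1, 117.3 and 121.6 CPM (0.56, SE 0.12, edgeR adjusted p = 0.00547). At 24 weeks replicate 2 was the lowest library for 16 of the 20 genes, a count not made over all genes.

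Of 21 tested genes of ER-associated degradation, to which Herpud1 belongs, 3 rose and 3 fell, 14.3% each way and close to the 15.5% and 13.3% of all genes, and the list's median was -0.11 on the log2 scale. Erlec1, a lectin that recognizes glycans of misfolded proteins, measured 14.9, 17.7 and 11.1 CPM at 5 weeks and 43.9, 46.4 and 47.8 CPM at 24 weeks, a rise of 1.67 on the log2 scale (SE 0.16, edgeR adjusted p = 5.99e-05). Os9, the other lectin of this kind, fell from 254.7, 232.5 and 250.7 CPM to 165.2, 151.3 and 167.2 CPM (-0.61, SE 0.10, edgeR adjusted p = 0.00155). In each the ages were far apart. Herpud2, the paralog of Herpud1, rose from 35.1, 40.4 and 39.8 CPM to 70.1, 61.1 and 60.1 CPM (0.73, SE 0.11, edgeR adjusted p = 0.000982).

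Of 28 listed ATF4 targets of amino acid metabolism and stress, the group of Asns, Chac1 and Trib3, 25 were tested. In it 3 rose and 3 fell, 12% each way and near the 15.5% and 13.3% of all genes, and the median log2 fold change was 0.01. The amino acid transporters Slc7a5 and Slc7a1 rose. Slc7a5, the large neutral amino acid transporter, measured 41.5, 39.7 and 47.4 CPM at 5 weeks and 79.0, 84.0 and 81.6 CPM at 24 weeks (0.93, SE 0.11, edgeR adjusted p = 0.000184). Slc7a1, the cationic amino acid transporter, measured 19.3, 20.3 and 22.3 CPM and then 39.9, 49.2 and 59.2 CPM (1.26, SE 0.15, edgeR adjusted p = 2e-04). Nars, the asparaginyl-tRNA synthetase, fell from 287.9, 256.0 and 232.3 CPM to 198.2, 180.3 and 194.3 CPM (-0.44, SE 0.11, edgeR adjusted p = 0.0149), a call that was lost without the 5-week replicate 1 or the 24-week replicate 2 (edgeR adjusted p = 0.0623 and 0.0728). Brain endothelium also expresses both transporters strongly, and the summed endothelial markers stood at 238 to 283 CPM at 5 weeks and 538 to 568 CPM at 24 weeks, whose part in the rise of Slc7a5 and Slc7a1 was not tested.

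Of 6 death-related genes downstream of Ddit3 none passed in edgeR, DESeq2 or limma-voom (1 at an unadjusted p under 0.05 in edgeR), and the median log2 fold change was 0.16. Tnfrsf10b, which encodes the TRAIL receptor DR5, measured 0.75, 0.53 and 0.74 CPM at 5 weeks and 1.02, 1.04 and 2.06 CPM at 24 weeks (0.97, SE 0.38, edgeR adjusted p = 0.0770). Pmaip1 (Noxa) had a log2 fold change of -0.30 and Ero1l, an ER oxidase, one of 0.29. Over all 105 pathway genes tested outside the members 9 rose and 21 fell, and their median was -0.12 on the log2 scale. These were 8.57% rising and 20% falling, beside 15.5% and 13.3% of all genes, in lists made with earlier results of these data known. The falling pathway genes were 34 without the 5-week replicate 3 and 8 without the 24-week replicate 2. In those fits 2817 of 15922 and 1181 of 16807 of all genes fell.

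**Figure D5:**
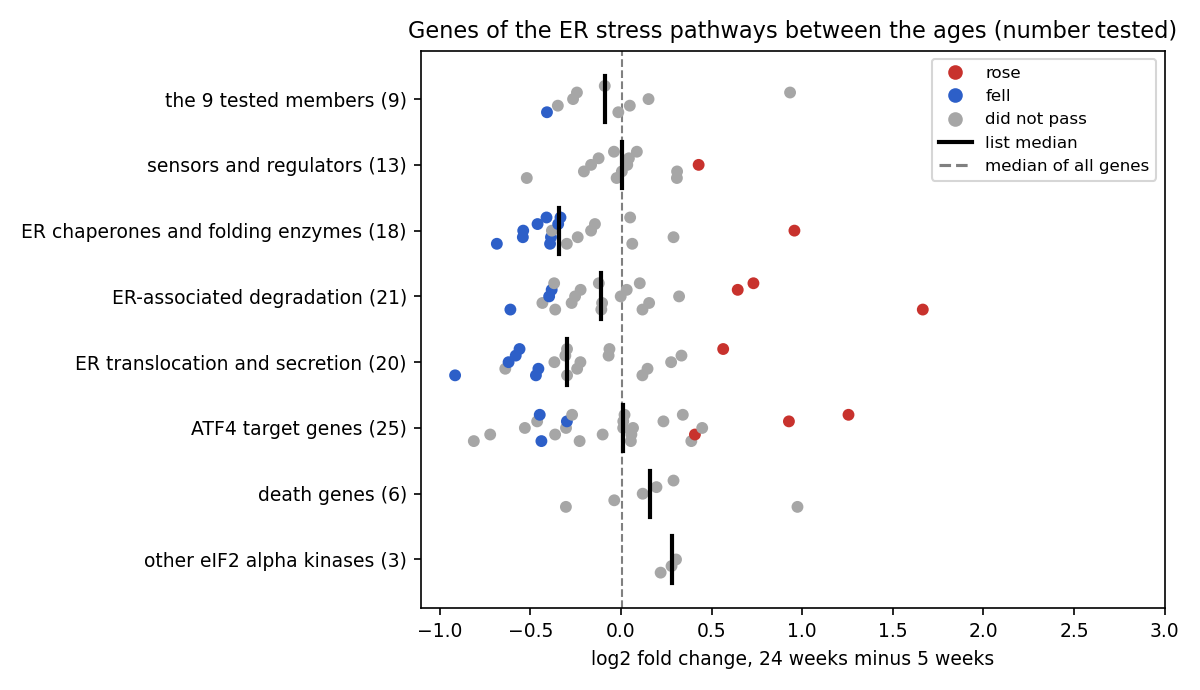
Log2 fold change between the ages for the 9 tested genes and for each list of other ER stress genes, 1 point per gene, coloured by whether it passed in edgeR's test, with the median of each list (bar) and of all genes (dashed line). The medians of the chaperone list (-0.34) and of the translocation list (-0.30) lie left of the dashed line, and the rises furthest to the right are those of Erlec1 (1.67) and Slc7a1 (1.26).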

How the data were processed

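The authors passed the strand-specific read pairs through trim_galore and then TopHat2 2.0.13 (build GRCm38), and counted uniquely placed pairs per Ensembl gene with HTSeq 0.6.1, and they used DESeq2 1.6.3 to compare Het with WT. The deposited values are these raw counts, with no normalization, and 5 rows that name no gene were left out of every library size. Symbols, positions, lengths and GC content came from GENCODE on GRCm38, which matched 37607 of 38924 identifiers. Normalized CPM are counts per 1000000 on genes after TMM scaling. The ages were compared in R 4.3.3 with edgeR 4.0.16 (quasi-likelihood fit, default filter on low counts by age, age as the only term), with Benjamini-Hochberg adjustment over 16157 genes and a threshold of 0.05. Each library is a mouse of its own, and the tests measure the spread between these 3 mice per age. The fit was tested on simulated data.

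The text names all 10 members, every sensor and regulator, and of each other list the 3 genes with the smallest p-values. Other genes named, and the comparison of the 5-week replicate 3 by GC content, were chosen after their values were seen. The members and lists were chosen with earlier results of these data known. Other settings tried were DESeq2 1.42.0, limma-voom (limma 3.58.1), DESeq2's size factors in edgeR, library totals without TMM, no filter, at least 50 counts in every library, nuclear protein-coding genes only, removal of each library's trends with length and GC, 5-week libraries thinned to 24-week depth, a replicate block, and each library left out.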

Additional observations from a re-analysis of the deposited data

How the results depend on the processing

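Age and lane cannot be told apart, 3 mice per age leave wide intervals, and Trib3 and Chac1 have at most 18 counts in a library. Ddit3 passed in 10 of 16 other settings and Xbp1 in 5, and no other member passed in any. The members that fell numbered 0 with total counts only or with length and GC trends removed, 2 with DESeq2, no filter, at least 50 counts or nuclear protein-coding genes (Ddit3 and Xbp1 in each), and 0 to 1 with a library left out. None rose in any setting.

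Of all genes, 3229 rose and 1466 fell with total counts only, where the median log2 fold change was 0.10, 2367 rose and 3298 fell with length and GC trends removed, and 1638 to 3225 rose and 1181 to 2817 fell with a library left out, beside 2505 and 2141. Rising pathway genes numbered 17 with total counts only and 6 to 19 with a library left out, and falling ones 34 with length and GC trends removed and 8 to 34 with a library left out, beside 9 and 21. Falling chaperones numbered 5 with total counts only and 2 to 11 with a library left out, beside 9. The cause of these differences was not tested.

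Some log2 fold changes changed sign, and none of those passed after the turn. Most were near 0, but Ern1 (0.31) and Eif2ak4 (0.22) were not, and Atf6 and Mbtps1 came to adjusted p-values of 0.0516 and 0.0534 in edgeR with length and GC trends removed. With total counts only these were Hsp90b1 (0.074), Herpud1 (0.0089), Eif2ak3 (0.058) and Ppp1r15b (0.071). With length and GC trends removed these were Herpud1 (0.024), Ern1 (-0.029), Atf6 (-0.25), Atf6b (-0.040), Mbtps1 (-0.24) and Eif2ak4 (-0.0072). Atf6 was -0.0029 with no filter. Atf6b was -0.0025 with size factors by DESeq2's method, -0.0024 with DESeq2, -0.0049 with thinned libraries, -0.033 with no filter, -0.0082 with at least 50 counts and -0.0061 with nuclear protein-coding genes. With a library left out the ranges were -0.17 to 0.078 for Hsp90b1, -0.19 to 0.059 for Herpud1, -0.11 to 0.14 for Dnajb9, -0.044 to 0.27 for Asns, -0.13 to 0.025 for Eif2ak3, -0.087 to 0.175 for Atf6b, -0.25 to 0.075 for Ppp1r15a, -0.081 to 0.0087 for Ppp1r15b and -0.087 to 0.13 for Nupr1.

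The replicate numbers are only labels, and no pairing of the mice is named. The deviations of same-numbered libraries correlated at 0.06, 0.10 and -0.05, and those of differently numbered ones at -0.14 to 0.08. Deviations from a mean of 3 libraries are tied to each other, so these values can neither show nor exclude a pairing. With a replicate block Ddit3 had a log2 fold change of -0.42 (edgeR adjusted p = 0.0363) and Hsp90b1 one of 0.0029, 1 member fell, and 2424 of all genes rose and 1951 fell. Pathway genes that rose and fell numbered 8 and 18, and Atf3 passed (-0.53, edgeR adjusted p = 0.0234).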

Other observations

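Genes whose promoter window holds the elements printed above were counted between the ages. Of 18 tested genes with an ERSE 3 (16.7%) rose (Acacb, Hnrnpa3 and Syvn1) and 2 (11.1%) fell (Creld2 and Pdia6), and the median log2 fold change was -0.18. Of 9 tested genes with an ERSE-II 1 rose (Lrif1) and 1 fell (Dnajb11), 11.1% each way. These shares were near the 15.5% rising and 13.3% falling of all genes. Of 326 tested genes with a CARE 52 rose and 33 fell, or 16.0% and 10.1%, beside 15.5% and 13.3% of all genes. Syvn1 is the ubiquitin ligase of ER-associated degradation, and the members with the same element, Hspa5 and Hsp90b1, did not pass. These genes were chosen after their values were seen.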
